A study of Rattus norvegicus with 4 samples.

Results

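Signals of skeletal muscle RNA from rats were compared between 2 pairs of arrays: ischemia and ischemia with electrical stimulation (ES) on one side, sham and ischemia with exercise on the other. The rats were of the F344/DuCrlCrlj strain, and each of the 4 groups was measured on 1 single-colour array. By their labels, the sham group was not made ischemic and the other 3 groups were: 1 was left untreated, 1 received ES, which made the muscle contract through its nerve, and 1 exercised. The model stands for intermittent claudication, leg pain on walking caused by poor blood flow, and the study asked how ES and exercise act on the ischemic muscle. The labels give no muscle, age or treatment time, and they do not say how many animals stand behind an array or whether animals were pooled.

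The division does not separate ischemic from non-ischemic muscle, because the exercise group was ischemic too, and it does not separate treated from untreated muscle. It was taken up with earlier results of these data known. For each gene, the signals were floored at 30.1, the pooled median of all values of the 4 arrays, and the 4 ratios between an array of one side and an array of the other were formed. Floored signals were used for every ratio, while the signals below are given as deposited after scaling. The smallest of the 4 ratios describes the gene, so a gene is included only where both arrays of one side lie beyond both arrays of the other. The comparison covered 10092 genes whose signal passed the floor somewhere, and 195 of them had all 4 ratios past 1.5-fold, and 59 of the 195 had all 4 past 2-fold. On ischemia and ES, 138 genes (1.37% of those compared) were higher and 57 (0.565%) lower at 1.5-fold, and 28 (0.277%) were higher and 31 (0.307%) lower at 2-fold. All 4 signals exceeded the floor for 116 of the 138 and 40 of the 57 genes. For 14 and 9 genes both arrays of the lower side lay at or under it, so that the ratio is a lower bound, written "at least". These values chose the genes, so the sides of the included genes are a description. With 1 array per group there is no replicate, no SD and no p-value, and a smallest ratio is a difference between 2 arrays.

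As background, skeletal muscle is built of slow-twitch fibres, which are fatigue resistant and use slow isoforms of myosin, troponin and the calcium pump, and of fast-twitch fibres, which use other isoforms of the same parts. The share of each is set by the muscle and shifts with nerve activity and load. Between the fibres lie fibroblasts, which lay down collagen, and macrophages, which clear damaged tissue and increase in number after injury. A muscle piece holds all of these cells, so fewer cells of a type and less RNA per cell cannot be told apart here.

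Median signals ran from 29.0 to 31.8 over the 4 arrays, and 49.3% to 51.1% of 31099 probe sets exceeded the floor. Genes that define skeletal muscle were bright on all arrays: Acta1, the actin of the muscle sarcomere, had signals of 11291 on sham, 10831 on exercise, 9908 on ischemia and 12192 on ES. None of the 11 muscle identity genes compared passed 1.5-fold in all 4 ratios. The 3' to 5' ratio of the actin control probe sets, a measure of RNA integrity that is higher in degraded RNA, was 3.81 on ischemia, 4.34 on exercise, 4.38 on sham and 5.94 on ES. Ischemia was thus lowest and ES highest in this ratio, with both arrays of the other side between them.

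**Figure D1:**
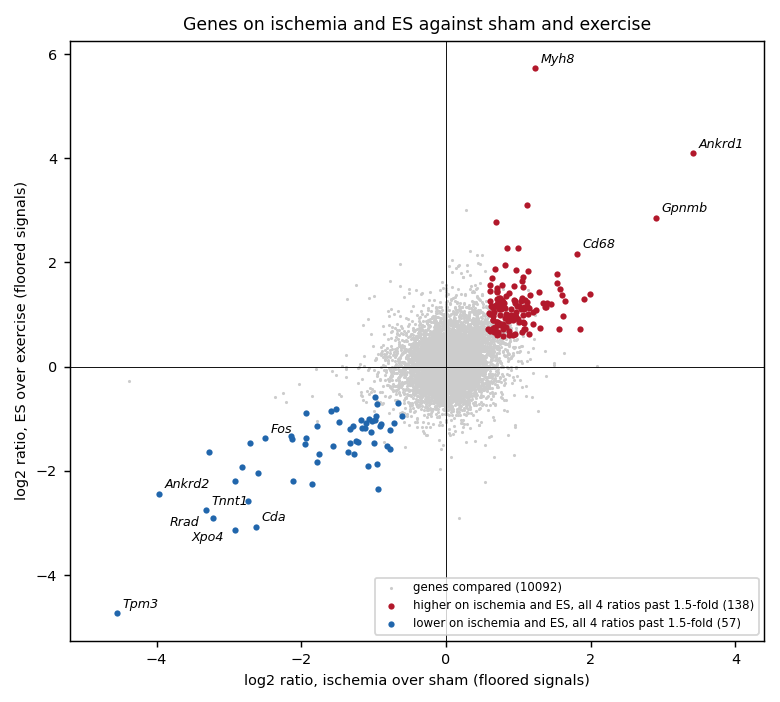
Log2 ratio of ischemia over sham (horizontal) against ES over exercise (vertical) for 10092 genes, from floored signals, 1 array per group. The 138 genes higher on ischemia and ES in all 4 cross ratios past 1.5-fold are red and the 57 lower ones blue; Tpm3 and Ankrd1 lie farthest out, and Myh8 stands out on the vertical axis alone.

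Slow-fibre genes were the largest group among the genes lower on ischemia and ES. Of 11 slow contractile genes compared, 10 passed 1.5-fold in all 4 ratios and 8 passed 2-fold, all lower on ischemia and ES, and the list median of the mean cross log2 ratio (ischemia and ES minus sham and exercise) was -2.31, beside 0.02 over all genes compared. Tnnt1, the slow troponin T that anchors the troponin complex to tropomyosin, had signals of 6702 on sham, 8659 on exercise, 676 on ischemia and 1278 on ES. Its smallest ratio was 5.24-fold, between sham and ES. All 4 ratios of this gene exceeded the difference between the 2 arrays of either side. Tnnc1, the calcium-binding troponin of slow fibres, had 8049 on sham, 9176 on exercise, 1062 on ischemia and 2013 on ES, a smallest ratio of 3.998-fold. Tnni1, the slow inhibitory troponin, had 6929 on sham, 8435 on exercise, 977 on ischemia and 2224 on ES, a smallest ratio of 3.12-fold. So all 3 parts of the slow troponin complex lay low on both ischemia and ES, with ES above ischemia each time.

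Myh7, the slow myosin heavy chain, had 11339.8 on sham, 12422 on exercise, 2970.4 on ischemia and 4827 on ES, with a smallest ratio of 2.35-fold. A second probe set of Myh7 read 1543 on sham, 1657 on exercise, 102 on ischemia and 111 on ES, a smallest ratio of 13.9-fold, and on it ischemia and ES hardly differed. Myl2, a regulatory light chain of slow myosin, had 6516 on sham, 6814 on exercise, 995 on ischemia and 2455 on ES (2.65-fold), with 1.41-fold on a second, dim probe set. The other slow light chain, Myl3, passed 1.5-fold but not 2-fold, with 7677 on sham, 8949 on exercise, 2549.6 on ischemia and 4967 on ES (1.55-fold), and it did not stay past 1.5-fold under both quantile and loess normalization. In this myosin set ES lay between ischemia and the sham and exercise pair.

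Atp2a2 encodes the slow calcium pump that returns calcium to the sarcoplasmic reticulum. Its signals were 8479 on sham, 9694 on exercise, 1405 on ischemia and 2363 on ES, with a smallest ratio of 3.59-fold. On its 3 other probe sets above the floor, the smallest ratios were less, at 1.45-fold, 1.79-fold and 1.86-fold, all the same way. Myoz2, which binds calcineurin at the Z-disc of slow fibres, had 6181 on sham, 6725 on exercise, 637 on ischemia and 2160.3 on ES. Its smallest ratio was 2.86-fold, less than the 3.39-fold difference between ES and ischemia. Lmod2, which lengthens thin filaments, passed only 1.5-fold, with 1959.7 on sham, 2812 on exercise, 446 on ischemia and 1114 on ES (1.76-fold).

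Tpm3, slow tropomyosin, had the largest smallest ratio of all genes, 20.9-fold, with 3756 on sham, 4794 on exercise, 160.2 on ischemia and 180.1 on ES on its brightest probe set. Its other probe sets did not repeat this: of 7 others that exceeded the floor, 2 had sides that stayed apart, by up to 1.49-fold, and on 5 the sides overlapped or were level at the floor. The probe sets of this gene may read different transcripts, which was not tested.

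Casq2, the slow and cardiac calsequestrin that stores calcium, was the slow contractile gene that did not pass. It read 704 on sham, 936 on exercise, 171 on ischemia and 746 on ES, so ES lay with sham rather than with ischemia. 2 further genes, picked after their values were seen, came close to the same pattern. Sln, an inhibitor of the calcium pump, had 1419.99 on sham, 802 on exercise, 68.2 on ischemia and 665 on ES, and Csrp3, a muscle LIM protein, had 2424 on sham, 3525 on exercise, 469.9 on ischemia and 2360.4 on ES. On both, ischemia alone was far below the other 3 arrays.

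The fast-fibre genes did not divide this way. None of 15 fast contractile genes passed 1.5-fold in all 4 ratios in either direction. Myh4, the fastest adult myosin heavy chain, had 12841 on sham, 13339 on exercise, 13178 on ischemia and 10366 on ES, so the sides overlapped. Myh2, the myosin of oxidative fast fibres, had 10914 on sham, 9284 on exercise, 8834 on ischemia and 12599.8 on ES. Myh1, the intermediate fast myosin, had 7257 on sham, 6496 on exercise, 6912 on ischemia and 8851 on ES, on a probe set open to cross-hybridization, and Tnnt3, fast troponin T, had 12222 on sham, 12519 on exercise, 10546 on ischemia and 12460.4 on ES. On Myh2 and Myh1, ES was the highest array and ischemia or exercise the lowest, so the sides overlapped.

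**Figure D2:**
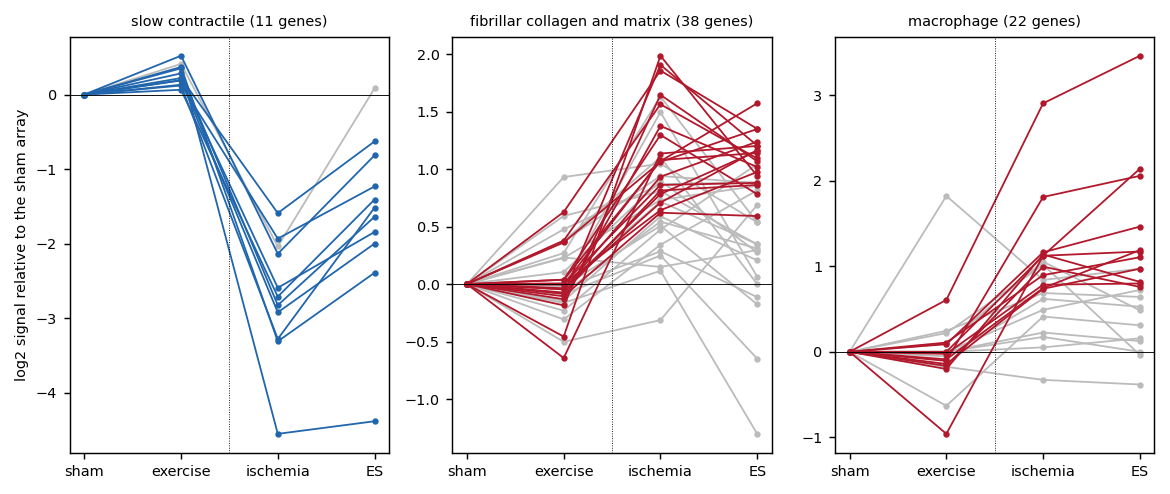
Log2 signal relative to the sham array for the genes compared of 3 lists, 1 line per gene, with the sham and exercise arrays left of the dotted line and ischemia and ES right of it. Coloured lines are genes past 1.5-fold in all 4 cross ratios (10 of 11 slow contractile genes, lower; 18 of 38 matrix and 11 of 22 macrophage genes, higher), grey lines the rest.

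Among 21 regulators of the slow-fibre programme, 3 passed 1.5-fold in all 4 ratios, all lower on ischemia and ES, and the list median was -0.28. Prox1, a transcription factor that supports the slow programme, read 129.8 on sham, 225 on exercise, 26.7 on ischemia and 49.2 on ES. The value on ischemia lay under the floor, ES came next, and the smallest ratio was 2.64-fold. Esrrg, a nuclear receptor of oxidative muscle, had 960.4 on sham, 912 on exercise, 492 on ischemia and 470.5 on ES (1.86-fold), and its second probe set had a smallest ratio of 1.73-fold. Rcan1, which is induced by and restrains calcineurin, had 584 on sham, 559 on exercise, 203 on ischemia and 319 on ES (1.76-fold). The sides of the Esrrg signals were tight, with each pair of arrays close together and a clear gap between the pairs. Ppargc1a, the coactivator of mitochondrial genes, did not pass: its signals were 308 on sham, 467 on exercise, 249.97 on ischemia and 334 on ES, with ES above sham.

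Genes that answer to stretch and load lay on both sides. Of 25 Z-disc and mechanical stress genes, 4 were lower past 1.5-fold (Ankrd2, Fhl2, Myoz2 and Xirp1) and 1 higher (Ankrd1), and the list median was -0.20. Ankrd1 and Ankrd2 are related ankyrin repeat proteins that bind titin, and they went opposite ways. Ankrd2, which is found mainly in slow fibres, had 2141 on sham, 2978 on exercise, 137 on ischemia and 549 on ES, with a smallest ratio of 3.8997-fold. ES exceeded ischemia 4.01-fold on this gene, slightly more than the gap between the sides. Ankrd1 had the largest smallest ratio among the higher genes, 10.6-fold, with 77.7 on sham, 75.7 on exercise, 826 on ischemia and 1298 on ES. A second probe set of Ankrd1 gave 30.4 on sham, 18.8 on exercise, 267 on ischemia and 396 on ES, a smallest ratio of 8.79-fold, with sham just above the floor and exercise under it. Fhl2, a LIM-domain scaffold protein, had 214 on sham, 359 on exercise, 32.1 on ischemia and 59.8 on ES (3.57-fold), and its second probe set had a smallest ratio of 3.44-fold. Xirp1, an actin-binding protein of muscle attachment sites, had 744 on sham, 1046 on exercise, 362 on ischemia and 441 on ES (1.69-fold).

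Of 27 immediate early genes, whose transcription follows a stimulus within minutes without new protein, 2 were lower past 2-fold and none was higher, with a list median of -0.32. Fos, a subunit of the AP-1 factor, had 719 on sham, 298 on exercise, 127 on ischemia and 115 on ES (2.34-fold). Here the 2 arrays of the sham and exercise side were 2.41-fold apart, more than the smallest ratio between the sides. Atf3, a stress-induced transcription factor, had 259 on sham, 283 on exercise, 66.98 on ischemia and 102 on ES (2.55-fold), with sham and exercise close together. Hspa1a, an inducible chaperone, was the 1 of 19 heat shock genes past 1.5-fold, with 443 on sham, 580.1 on exercise, 177 on ischemia and 209 on ES (2.12-fold). A near-identical copy of Hspa1a exists in the genome, so its signal may mix both. Rrad, a small GTPase of the RGK family that inhibits calcium channels, had 459 on sham, 883 on exercise, 49.1 on ischemia and 117 on ES (3.92-fold). On Rrad all 4 arrays were spread out, in the order ischemia, ES, sham and exercise.

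The other genes lower past 2-fold fell outside the lists. Xpo4, an exportin that carries proteins out of the nucleus, had 521 on sham, 788 on exercise, 68.98 on ischemia and 89.7 on ES (5.81-fold). Its 2 other probe sets had smallest ratios of 2.41-fold and 1.55-fold, both the same way. Slc38a1, a transporter of glutamine and other neutral amino acids, had 149.8 on sham, 175 on exercise, 41.6 on ischemia and 36.4 on ES (3.598-fold), with 1.39-fold on a second probe set. Prxl2a, a peroxiredoxin-like protein, had 508 on sham, 640 on exercise, 198 on ischemia and 206 on ES (2.47-fold), and Ablim1, an actin-binding LIM protein, had 875 on sham, 1133 on exercise, 297 on ischemia and 393 on ES (2.23-fold). On Slc38a1 and Prxl2a ischemia and ES were nearly level.

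Sdc4, a cell surface proteoglycan of satellite cells and other cells, had 556 on sham, 561 on exercise, 274 on ischemia and 274 on ES (2.03-fold), with each pair within 1.01-fold. Slc2a13, a carrier of myo-inositol, had 251 on sham, 400.2 on exercise, 104 on ischemia and 125 on ES (2.01-fold). Ift81, a part of the transport system of cilia, had 122 on sham, 121 on exercise, 43.7 on ischemia and 57.96 on ES (2.08-fold), and Gsta4, which conjugates glutathione to lipid peroxidation products, had 104 on sham, 95.4 on exercise, 46.04 on ischemia and 46.8 on ES (2.04-fold). These genes differ in known function, and the division of the arrays that they share follows from the way they were chosen.

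For 7 of the 31 genes, both ischemia and ES lay at or under the floor, and the ratio is a lower bound. Cda, cytidine deaminase, was at least 6.19-fold lower, with 187 on sham, 254 on exercise, 20.8 on ischemia and 10.1 on ES. Mmp13, a collagenase, was at least 2.62-fold lower, with 131 on sham, 79.02 on exercise, 6.26 on ischemia and 2.05 on ES. Scn1a, a sodium channel best known from neurons, was at least 2.37-fold lower, Endou at least 2.23-fold, Vtcn1, an inhibitor of T cells, at least 2.11-fold and Tnn, tenascin N of the matrix, at least 2.001-fold. The seventh was a gene without a name beyond its locus symbol. Eps8l2, an actin-binding protein, was at the floor on ischemia but not on ES, with 101 on sham, 136 on exercise, 16.002 on ischemia and 42.9 on ES (2.37-fold).

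**Figure D3:**
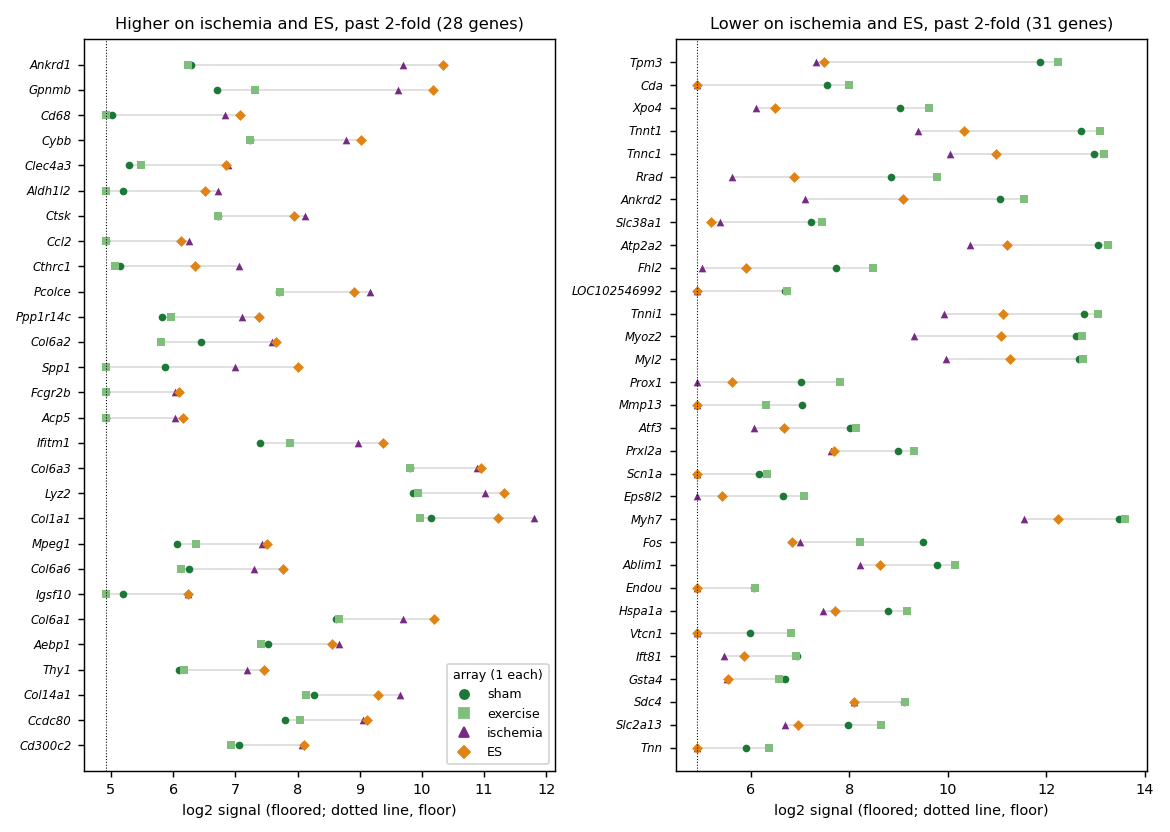
Log2 floored signal of each gene past 2-fold in all 4 cross ratios, 1 point per array, with 28 genes higher on ischemia and ES (left) and 31 lower (right), sorted by the smallest ratio. The dotted line is the floor of 30.1; on the right, ES lies above ischemia for many slow-fibre genes, and on the left the sham and exercise points often coincide.

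Another 26 genes were lower past 1.5-fold but not 2-fold. From the lists these were Esrrg, Rcan1, Lmod2, Xirp1 and Myl3 together with Fgf1, a fibroblast growth factor (1.58-fold), and Colq, the collagen tail that anchors acetylcholinesterase at the neuromuscular junction (1.53-fold). Colq read 73.4 on sham, 105 on exercise, 23.1 on ischemia and 47.9 on ES, and it was the 1 of 16 neuromuscular junction genes to pass. The other 15 had a mean cross log2 ratio above 0, with a list median of 0.14, so Colq was the single lower gene of its list. Of the remaining 19, named after their values were seen, Myh10, a non-muscle myosin, read 622 on sham, 703 on exercise, 181 on ischemia and 317 on ES (1.96-fold). Smtnl1, a muscle protein linked to exercise adaptation, read 2178 on sham, 1752 on exercise, 569.9 on ischemia and 948 on ES (1.85-fold). Mettl21c, a methyltransferase of muscle, read 296 on sham, 281 on exercise, 153 on ischemia and 76.9 on ES (1.84-fold), with ES as the lowest array. Acss1, which activates acetate in mitochondria, read 512 on sham, 599 on exercise, 290.03 on ischemia and 207 on ES (1.76-fold), and it too was lowest on ES. The rest, among them Tnik, Slc4a3, Hey2, Homer2, Gsta1, Tppp3 and Asb18, had smallest ratios between 1.51-fold and 1.92-fold.

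On the higher side, genes of the collagen matrix formed the largest group. Of 38 matrix genes compared, 18 were higher past 1.5-fold on ischemia and ES and 6 past 2-fold, none was lower, and the list median was 0.79. On 29 of the 38, both ischemia and ES exceeded both other arrays, beside 20.9% of all genes. The 29 include the 18 genes chosen by the rule, which fixes their sides in advance. Col1a1, a chain of type I collagen, the main fibril of scar and tendon, had 1137 on sham, 1000.4 on exercise, 3561 on ischemia and 2385 on ES (2.097-fold). Its second probe set had a smallest ratio of 2.22-fold. Col1a2, the partner chain, had 2802 on sham, 2878 on exercise, 6889 on ischemia and 4819 on ES (1.67-fold). On both type I chains ischemia was higher than ES, and sham and exercise were close.

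Col3a1, the chain of type III collagen, had 4383 on sham, 4164 on exercise, 7707 on ischemia and 7973 on ES (1.76-fold). Its neighbour in the genome, Col5a2, a chain of type V collagen that starts fibrils, had 768 on sham, 769 on exercise, 1395 on ischemia and 1413 on ES (1.81-fold). On this pair of genes ischemia and ES were nearly level. Col5a1 had a smallest ratio of 1.91-fold and Col5a3 of 1.63-fold, and Col14a1, which lies on the surface of fibrils, of 2.03-fold. The other probe set of Col14a1 gave 1.24-fold.

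The chains of type VI collagen, a network around each fibre, passed 2-fold as a set. Col6a1 had 394 on sham, 405 on exercise, 828 on ischemia and 1174 on ES (2.04-fold), and Col6a2 had 87.2 on sham, 55.8 on exercise, 192 on ischemia and 201 on ES (2.198-fold), with 1.49-fold on its other probe set. Col6a3 had 898 on sham, 895 on exercise, 1897 on ischemia and 1980.4 on ES (2.11-fold), and Col6a6, a further chain outside the lists, had 76.1 on sham, 69.5 on exercise, 157 on ischemia and 217 on ES (2.07-fold). On all 4 of these genes ES was at or above ischemia, unlike the type I chains.

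Among the genes that passed were also enzymes and partners of collagen, grouped here after their values were seen. Pcolce, which speeds the removal of the procollagen tail, had 209 on sham, 211 on exercise, 573 on ischemia and 483 on ES (2.29-fold). Lox, which crosslinks collagen and elastin, had 116 on sham, 179 on exercise, 421 on ischemia and 296 on ES (1.65-fold), with exercise above sham. Loxl1, its relative, had a smallest ratio of 1.64-fold, Postn, a matricellular protein of remodelling tissue, of 1.64-fold, Sparc, which binds collagen, of 1.72-fold and Bgn, a small proteoglycan, of 1.56-fold. Mmp14, a membrane-bound collagenase, had 1.51-fold. Cthrc1, a secreted protein of activated fibroblasts, had 35.5 on sham, 33.5 on exercise, 133 on ischemia and 81.8 on ES (2.31-fold), and Sfrp2, a Wnt modulator, had 41.3 on sham, 22.9 on exercise, 164 on ischemia and 79.4 on ES (1.92-fold). Cthrc1 and Sfrp2 were both highest on ischemia, with ES between.

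Aebp1, a secreted collagen-binding protein, had 184 on sham, 171 on exercise, 406 on ischemia and 375 on ES (2.04-fold), and Ccdc80, a matrix protein, had 224 on sham, 262 on exercise, 529 on ischemia and 556 on ES (2.02-fold). Igsf10 had 36.5 on sham, 22.9 on exercise, 75.6 on ischemia and 75.4 on ES (2.07-fold). Of 10 fibroblast markers, Thy1, a surface protein of fibroblasts and other cells, passed 2-fold with 68.2 on sham, 71.9 on exercise, 146 on ischemia and 176 on ES (2.03-fold), and Pdgfra (1.53-fold) and Fap (1.52-fold) passed 1.5-fold, Fap not under both quantile and loess normalization. The summed signal of the 10 markers was 7149.7 on sham, 8619.8 on exercise, 9704 on ischemia and 8219.9 on ES, so it did not divide by side, and Dpp4 and Tcf21 did not exceed the floor on any array. The part of fibroblast number in the matrix result was not tested. Basement membrane genes, the sheet around fibres and vessels, had a median of 0.63 but none of 13 passed 1.5-fold, and on 9 of 13 both ischemia and ES were the higher arrays.

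Macrophage markers made up the next group. Of 22 compared, 11 were higher past 1.5-fold and 5 past 2-fold, none was lower, and the list median was 0.76. Gpnmb, a membrane glycoprotein of lipid-laden and repair macrophages, had 105 on sham, 159.8 on exercise, 787 on ischemia and 1158 on ES (4.92-fold). Cd68, the lysosomal protein used to stain macrophages, had 32.4 on sham, 28.8 on exercise, 114 on ischemia and 135 on ES (3.51-fold). Lyz2, the lysozyme of macrophages and neutrophils, had 925 on sham, 984 on exercise, 2073 on ischemia and 2553 on ES (2.11-fold). On these 3 genes ES was the highest array, and sham and exercise lay near each other except on Gpnmb, where exercise was 1.52-fold above sham.

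Spp1, osteopontin, had 58.6 on sham, 25.7 on exercise, 128 on ischemia and 259 on ES (2.18-fold), and Fcgr2b, an inhibitory Fc receptor, had 25.1 on sham, 18.1 on exercise, 65.7 on ischemia and 67.9 on ES, at least 2.18-fold higher as both sham and exercise were under the floor. Adgre1, the F4/80 antigen, had 48.3 on sham, 42.03 on exercise, 106 on ischemia and 85.2 on ES (1.76-fold), Tyrobp, a signalling adaptor, 1.73-fold, C1qa, a complement subunit, 1.72-fold, Aif1 1.69-fold, Ctss, a lysosomal protease, 1.68-fold and Fcer1g 1.67-fold. Cd163, a scavenger receptor of resident macrophages, did not go with them, with 65.2 on sham, 57.7 on exercise, 51.9 on ischemia and 50.02 on ES. Mrc1, the mannose receptor, had 103 on sham, 99.3 on exercise, 158 on ischemia and 148 on ES, apart by side but only 1.44-fold. On Cd163 the 2 arrays of ischemia and ES were the lowest, and on Mrc1 they were the highest.

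The summed signal of the 22 macrophage markers was 2883 on sham, 4025 on exercise, 6142 on ischemia and 7280.4 on ES, and Itgam and Fcgr3a did not exceed the floor anywhere. This sum was higher on ischemia and ES, and in it exercise exceeded sham. It includes the 11 markers chosen by the rule, which fixes their sides in advance. The markers that did not pass were together brightest on exercise. Gene by gene, both ischemia and ES exceeded both other arrays on 18 of the 22, beside 20.9% of all genes. The 18 include the same 11 chosen markers, so this count is not free of the rule either. The part of the sum in the other immune results was not tested. The neutrophil list could not be read, with 2 of 6 genes on the array above the floor, and neither could the lymphocyte list, with 2 of 12.

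Of 21 phagocyte oxidase and lysosome genes, 3 passed, all of them past 2-fold and higher on ischemia and ES. Cybb, the catalytic subunit of the oxidase that makes superoxide, had 151 on sham, 151 on exercise, 439.9 on ischemia and 521 on ES (2.91-fold), with sham and exercise level. Ctsk, a protease that cuts collagen, had 105 on sham, 105 on exercise, 278 on ischemia and 246 on ES (2.34-fold), again with sham and exercise level. Acp5, a phosphatase of osteoclasts and macrophages, had 20.6 on sham, 29.7 on exercise, 65.2 on ischemia and 71.6 on ES, at least 2.16-fold higher. Ctsk and Ctss are neighbours in the genome, and both were higher on ischemia and ES.

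Genes that present antigen on class II molecules were among the higher genes too: Cd74, the invariant chain, had 701 on sham, 626 on exercise, 1244 on ischemia and 1269.8 on ES (1.77-fold). RT1-Da, a class II chain, had 354 on sham, 314 on exercise, 686 on ischemia and 614 on ES (1.73-fold), RT1-Db1 1.87-fold, RT1-Ba 1.59-fold and RT1-Bb 1.56-fold. The RT1 genes are close copies of each other, so their probe sets may share signal, and on 2 other, dim probe sets of RT1-Ba the sides were not apart. In all, 6 of 17 complement and antigen presentation genes passed 1.5-fold, among them Tap1 (1.51-fold), a peptide transporter. Of these 6, Tap1 and RT1-Ba did not stay past 1.5-fold under both quantile and loess normalization. Of 21 cytokine genes, 2 passed: Ccl2, which draws monocytes, was at least 2.33-fold higher, with 26.8 on sham, 25.4 on exercise, 76.4 on ischemia and 70.2 on ES. Ccl9, another chemokine, was at least 1.68-fold higher, with 8.35 on sham, 3.96 on exercise, 50.7 on ischemia and 59.6 on ES. For both genes sham and exercise lay under the floor.

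Further genes of white blood cells stood outside the lists. Clec4a3, a lectin of myeloid cells, had 38.96 on sham, 44.8 on exercise, 118 on ischemia and 116 on ES (2.58-fold), and Mpeg1, a pore-forming protein of macrophages, had 66.5 on sham, 82.4 on exercise, 172 on ischemia and 182 on ES (2.09-fold). Cd300c2 had 134 on sham, 122 on exercise, 268 on ischemia and 275 on ES (2.003-fold), just past the threshold. Among genes past 1.5-fold, named after their values were seen, were Ptprc, the pan-leukocyte CD45 (1.78-fold), Itgb2 (1.71-fold), Lcp1 (1.84-fold), Cd53 (1.69-fold) and Laptm5 (1.63-fold). Mmp12, the elastase of macrophages, was at least 1.79-fold higher, with 7.196 on sham, 13.4 on exercise, 54.1 on ischemia and 146 on ES. Its neighbour in the genome, Mmp13, was among the lower genes, so these adjacent metalloprotease genes went opposite ways.

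Of 14 genes of developing and regenerating fibres compared, 4 were higher past 1.5-fold on ischemia and ES, and none passed 2-fold. On 9 of the 14, both ischemia and ES exceeded both other arrays, beside 20.9% of all genes, and the list median was 0.93. The 9 include the 4 genes chosen by the rule, which fixes their sides in advance. The summed signal of the 14 was 12419 on sham, 10751 on exercise, 12890.4 on ischemia and 19760.5 on ES, with ES alone apart. Myh8, the perinatal myosin, had 36.9 on sham, 44.99 on exercise, 86.4 on ischemia and 2393 on ES (1.92-fold), so ES stood far above the 3 other arrays and ischemia was only modestly above sham and exercise. Cdkn1c, an imprinted inhibitor of the cell cycle, had 224 on sham, 172 on exercise, 447 on ischemia and 834 on ES (1.998-fold), just under the 2-fold threshold. Igf2, an imprinted growth factor, had 408 on sham, 466 on exercise, 802 on ischemia and 1679.97 on ES (1.72-fold), and Mest, another imprinted gene, had 111 on sham, 81.5 on exercise, 172 on ischemia and 266 on ES (1.56-fold). All 4 were highest on ES. Myh3, the embryonic myosin, did not pass, with 169.8 on sham, 149.6 on exercise, 179.8 on ischemia and 617 on ES: ES alone stood apart.

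Of the 138 higher genes, 49 were in a list and 89 were not, and 11 of the 89 passed 2-fold. Those of the 11 not yet given were Aldh1l2, a mitochondrial enzyme of folate metabolism, with 36.5 on sham, 22.9 on exercise, 106 on ischemia and 91.1 on ES (2.499-fold), Ppp1r14c, a phosphatase inhibitor, with 56.8 on sham, 62.4 on exercise, 138 on ischemia and 167 on ES (2.21-fold), and Ifitm1, an interferon-induced membrane protein, with 169 on sham, 236 on exercise, 504 on ischemia and 663 on ES (2.13-fold). None of the 19 genes of the interferon list passed, although all 19 had a mean cross log2 ratio above 0 (median 0.43). Both ischemia and ES exceeded both other arrays on 6 of the 19, beside 20.9% of all genes. The summed signal of the 19 was 5502 on sham, 5796 on exercise, 5333 on ischemia and 8063 on ES, with ES alone apart. Apoe, which carries lipid out of cells, came close to 2-fold, with 462 on sham, 679 on exercise, 1422 on ischemia and 1333 on ES (1.96-fold). Pltp, a lipid transfer protein, passed 1.5-fold (1.6999-fold), so 2 of 18 lipid efflux and cholesterol genes did.

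**Figure D4:**
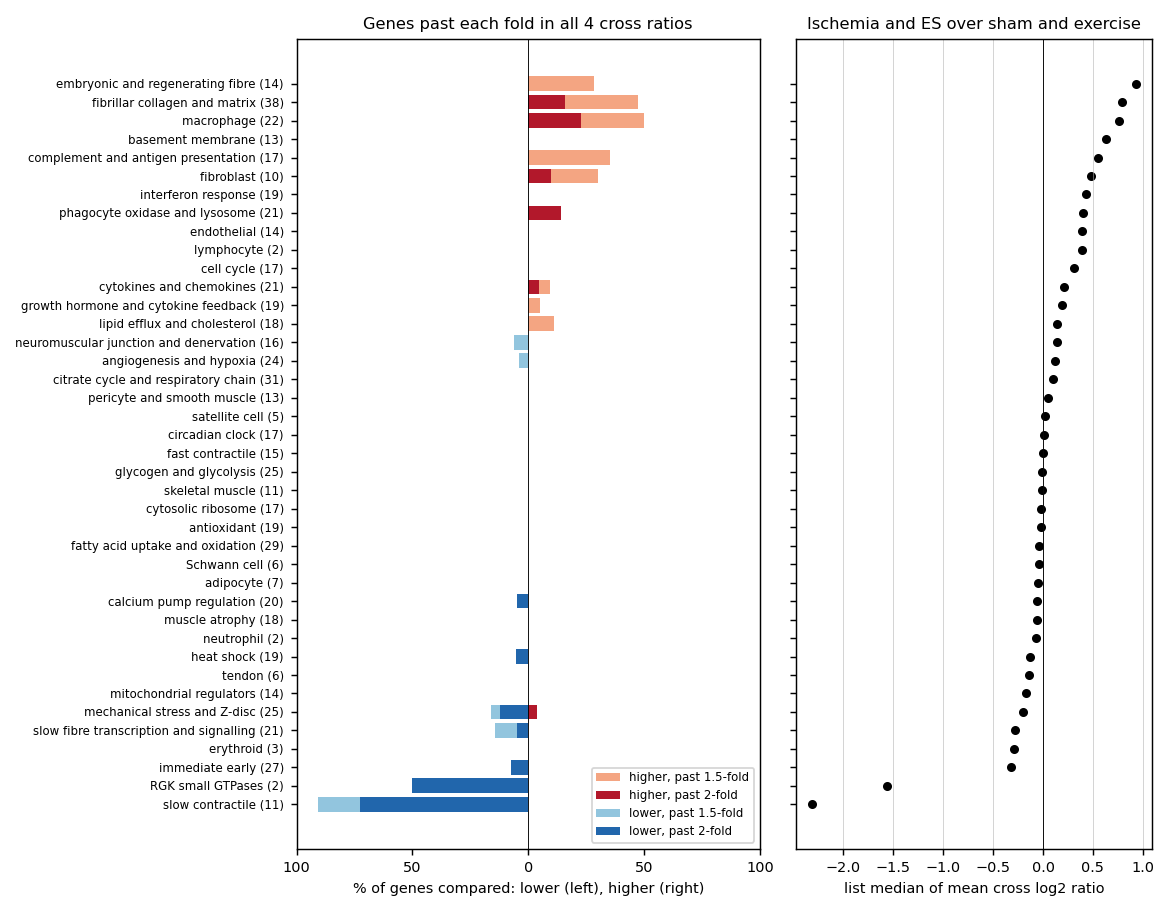
For 40 gene lists (number of genes compared in brackets), the percentage of genes past 1.5-fold and 2-fold in all 4 cross ratios (left panel, lower to the left and higher to the right) and the list median of the mean cross log2 ratio (right panel). Slow contractile genes lie at the lower end with a median of -2.31, and embryonic fibre, matrix and macrophage genes at the upper end with 0.93, 0.79 and 0.76.

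Several lists held no gene that passed. At the all-gene shares of 1.37% higher and 0.565% lower, lists of this size would hold few. None of 29 fatty acid oxidation and uptake genes, 31 respiratory chain and citrate cycle genes, 25 of glycogen and glycolysis, 14 mitochondrial regulators, 19 antioxidant genes, 18 atrophy genes, 17 clock genes or 17 cell cycle genes passed 1.5-fold in either direction. The same held for 14 endothelial, 13 pericyte and smooth muscle, 7 adipocyte, 6 tendon, 6 Schwann cell, 5 satellite cell and 3 erythroid markers and for 17 ribosomal protein genes. Such counts do not show that a list was level. The mean cross log2 ratio was above 0 for 28 of 31 respiratory chain and citrate cycle genes (list median 0.10). On only 2 of the 31 did both ischemia and ES exceed both other arrays. The summed signal of the 31 was 161060 on sham, 153806 on exercise, 150521 on ischemia and 191724 on ES, with ischemia lowest. The mean was also above 0 for 15 of 17 cell cycle genes (0.31) and 12 of 14 endothelial markers (0.39). Both ischemia and ES exceeded both other arrays on 5 of the 17 and 3 of the 14. The summed cell cycle signal was 1306 on sham, 1167 on exercise, 1410 on ischemia and 2348 on ES. For 10 of 14 mitochondrial regulators the mean cross log2 ratio was below 0 (-0.17). Both ischemia and ES lay below both other arrays on 5 of these 14, beside 14.3% of all genes, and above them on 2. Their summed signal was 7521 on sham, 7801 on exercise, 8462 on ischemia and 5881 on ES, with ischemia highest and ES lowest. Vegfa, the vessel growth factor, had 721 on sham, 764 on exercise, 557 on ischemia and 843 on ES, with overlapping sides. The summed signal of the endothelial markers was 3166 on sham, 3338 on exercise, 3116 on ischemia and 5939 on ES, with ES alone apart. Of 24 angiogenesis and hypoxia genes Fgf1 passed, and of 19 genes of growth hormone and cytokine feedback Igf2 did. The medians of the muscle identity, fast contractile, glycogen and glycolysis, clock, antioxidant and ribosome lists lay near 0 and have no direction, since the sign of each changed under quantile or loess normalization.

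The 2 arrays of a side were not alike for every gene. Over all 10092 genes compared, ES exceeded ischemia for 5656 and exercise exceeded sham for 5158. Among the 57 lower genes, ES exceeded ischemia for 36, was below it for 12 and was level at the floor for 9, and 18 of them were past 1.5-fold higher on ES, beside 9.8% of all genes. Exercise exceeded sham for 45 of the 57, with 8 past 1.5-fold, beside 2.93% of all genes. It was lower past 1.5-fold for Fos and Mmp13, beside 1.7%, and past 2-fold for Fos alone, where 0.258% of all genes were higher and 0.188% lower on exercise. ES set the smallest ratio for the same 36 of the 57 lower genes and sham, on the other side, for 45. The largest difference within the lower genes was that of Ankrd2, followed by Myoz2, where ES was 3.39-fold above ischemia.

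Among the 138 higher genes, ES exceeded ischemia for 94, beside 5656 of 10092 over all genes. Of the 138, 17 were past 1.5-fold higher on ES and 2, Sfrp2 and Cthrc1, were past 1.5-fold lower, beside 9.8% and 4.72% of all genes. Past 2-fold, ES was higher for 7 of the 138 and lower for 1, beside 2.28% and 0.793% of all genes. Exercise and sham differed past 1.5-fold for 5 of the 138. Gpnmb and Lox were higher on exercise and Col6a2, Spp1 and RT1-Ba lower, beside 2.93% and 1.7% of all genes. Ischemia set the smallest ratio for 94. For 126 of the 138 higher and 48 of the 57 lower genes, the smallest ratio between the sides was larger than the difference between the 2 arrays of either side. At 2-fold this held for 28 of 28 higher and 28 of 31 lower genes, the 3 exceptions being Ankrd2, Myoz2 and Fos. The rule chose genes by a large smallest ratio, which favours such counts, and more so at 2-fold. For 14 of the 138 and 9 of the 57 genes, flooring made both arrays of the lower side equal. No share of all genes stands beside these counts, so they only describe the chosen genes.

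**Figure D5:**
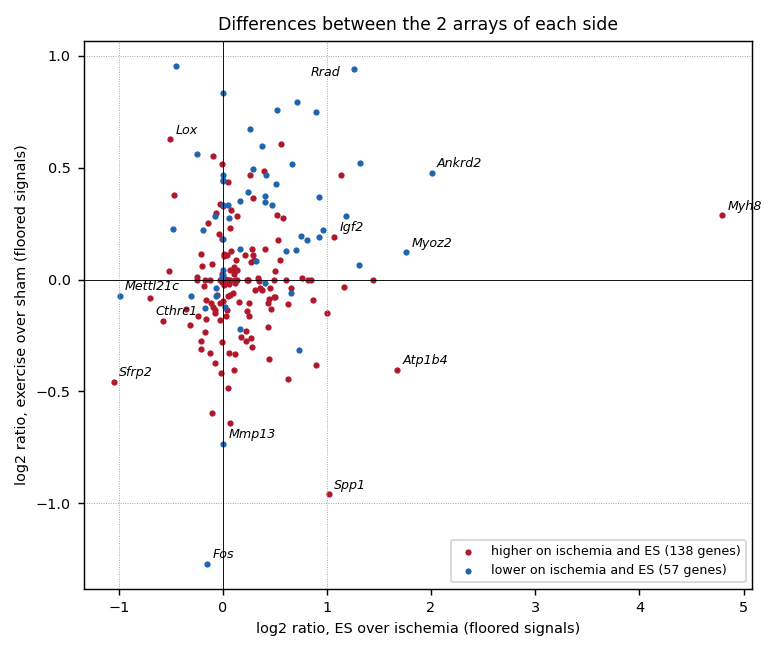
Log2 ratio of ES over ischemia (horizontal) against exercise over sham (vertical) for the 138 higher (red) and 57 lower (blue) genes, from floored signals, with dotted lines at 2-fold. Most genes lie within 2-fold on both axes; Myh8, Ankrd2, Myoz2 and Atp1b4 lie far to the right, and Fos lies lowest with sham 2.41-fold above exercise.

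Other probe sets of the same genes were not used to choose them, although they come from the same arrays. Of the 138 higher genes, 21 had 26 other probe sets that exceeded the floor somewhere. On these, 9 passed 1.5-fold in all 4 ratios, 10 had sides apart by less, 7 had overlapping or level sides and none went the opposite way. Of the 57 lower genes, 13 had 24 such probe sets, of which 11 passed 1.5-fold, 7 had sides apart by less, 6 overlapped or were level and none was opposite. The 6 were 5 of Tpm3 and 1 of Tnik. The 7 on the higher side were 2 each of RT1-Ba and Sephs1 and 1 each of Plekho1, Sfrp2 and Snx10. Of 3877 probe sets without a single gene symbol that could be compared, 26 were higher (0.671%) and 28 lower (0.722%) at 1.5-fold.

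Some genes lay close to the thresholds. At 2-fold, Cd300c2 (2.003-fold), Ccdc80 (2.02-fold) and Col14a1 (2.03-fold) were just inside on the higher side, and Cdkn1c (1.998-fold), Cotl1 (1.98-fold) and Apoe just outside. On the lower side Tnn (2.001-fold), Slc2a13 and Sdc4 were just inside, and Myh10, Tnik and Slc4a3 (1.91-fold) just outside. At 1.5-fold, Myof, Rassf4 and Antxr2 (1.51-fold) were just inside and Plac8, Olfml3 and Elmo1 (1.49-fold) just outside on the higher side. Smarcb1, Rd3l and Colq were just inside and Fgfr3 (1.49-fold), P2ry2 and Ddc (1.48-fold) just outside on the lower side. Under both quantile and loess normalization, Cd300c2, Ccdc80, Igsf10 and Tnn did not stay past 2-fold, nor Myof, Rassf4 and Antxr2 past 1.5-fold.

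Of the genes past 1.5-fold, 191 could be placed in gene order (RefSeq, assembly GRCr8), and 10 pairs of neighbouring genes were both among them. Col6a1 and Col6a2, Col3a1 and Col5a2, Gulp1 and Col3a1, Ctsk and Ctss, and 3 pairs of the RT1 class II genes were higher together, and Ift81 and Atp2a2 were lower together. Slpi with Sdc4 and Mmp12 with Mmp13 went opposite ways.

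The 250 bases before the start of each gene (RefSeq, GRCr8) were searched for 7 short motifs on both strands, each counted separately, so that matches of different motifs can share bases. A sequence was found for 18 of the 28 higher and 21 of the 31 lower genes past 2-fold and for 8462 of the genes compared. GAGGAA, the core that factors of the PU.1 family bind, was in 55.6% of the higher and 38.1% of the lower promoters. Over the 8462 promoters of all genes compared, the third value for each motif below, it was in 22.6%. TGANTCA, the AP-1 site, was in 22.2%, 14.3% and 4.31%. CANNTG, the E-box bound by myogenic factors, was in 77.8%, 76.2% and 56%. TATAAA was in 5.56%, 19% and 6.51%, and CATTCC (M-CAT) in 16.7%, 23.8% and 10%. The MEF2 motif, CTA and TAG with 4 bases between them, was in 0%, 4.76% and 2.78%, and TGACG, the core of a cyclic AMP response element, in 11.1%, 19% and 28.9%. At 1.5-fold, where 102 higher and 41 lower genes had a sequence, GAGGAA was in 33.3% of the higher and 24.4% of the lower promoters, TGANTCA in 9.8% and 17.1%, and CANNTG in 67.6% and 63.4%. TATAAA was in 10.8% and 17.1% of these, CATTCC in 12.7% and 17.1%, the MEF2 motif in 1.96% and 4.88%, and TGACG in 15.7% and 22%. The share with GAGGAA was thus smaller in the wider sets, and that of the lower genes lay near the share of all genes. A match is a description of letters and no evidence of binding. With 18 and 21 promoters, a single gene moves these percentages visibly.

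Promoters are shown for 3 phagocyte genes of the higher side with GAGGAA or its reverse complement in capitals. For 2 slow-fibre genes of the lower side, CANNTG is in capitals. The genes were taken from the phagocyte and slow-fibre results above. CANNTG itself does not mark the lower side, with 76.2% of the lower and 77.8% of the higher promoters past 2-fold. They run 5' to 3' along the gene and end at its start: Cd68 at chr10:54882442-54882691, Cybb at chrX:16065066-16065315 and Lyz2 at chr7:54798012-54798261 on the minus strand, and Tnnt1 at chr1:78348785-78349034 and Ankrd2 at chr1:250796169-250796418 on the plus strand of GRCr8.
Cd68: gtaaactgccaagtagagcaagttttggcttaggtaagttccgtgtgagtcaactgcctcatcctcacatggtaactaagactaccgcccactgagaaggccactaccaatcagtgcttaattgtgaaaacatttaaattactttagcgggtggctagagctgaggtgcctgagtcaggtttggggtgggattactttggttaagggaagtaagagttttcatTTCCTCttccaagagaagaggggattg
Cybb: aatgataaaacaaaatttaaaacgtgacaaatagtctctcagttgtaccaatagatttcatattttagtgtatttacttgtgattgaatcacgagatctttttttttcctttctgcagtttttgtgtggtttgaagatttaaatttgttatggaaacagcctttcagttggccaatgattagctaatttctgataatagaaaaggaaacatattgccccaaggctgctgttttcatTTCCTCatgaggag
Lyz2: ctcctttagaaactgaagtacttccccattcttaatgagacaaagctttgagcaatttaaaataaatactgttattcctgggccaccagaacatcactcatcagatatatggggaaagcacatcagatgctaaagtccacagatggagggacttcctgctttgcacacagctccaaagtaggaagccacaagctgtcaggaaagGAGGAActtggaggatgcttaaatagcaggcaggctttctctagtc
Tnnt1: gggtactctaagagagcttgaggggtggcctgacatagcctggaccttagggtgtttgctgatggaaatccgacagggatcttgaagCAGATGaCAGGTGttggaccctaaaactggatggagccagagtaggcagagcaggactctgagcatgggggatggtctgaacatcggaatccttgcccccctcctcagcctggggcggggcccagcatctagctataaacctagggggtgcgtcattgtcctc
Ankrd2: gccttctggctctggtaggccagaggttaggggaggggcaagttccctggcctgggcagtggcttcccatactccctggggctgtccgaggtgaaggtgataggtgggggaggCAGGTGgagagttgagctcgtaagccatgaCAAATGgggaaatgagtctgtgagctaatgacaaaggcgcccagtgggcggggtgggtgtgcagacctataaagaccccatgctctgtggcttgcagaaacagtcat
In each phagocyte promoter there is 1 match of GAGGAA, within the last 50 bases before the start, and in each slow-fibre promoter there are 2 of CANNTG. A different motif was marked in each group, so these counts cannot be compared. All 3 phagocyte promoters hold CANNTG too, left unmarked.

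When the arrays were instead divided into treated (ES and exercise) and untreated (sham and ischemia), 37 genes passed 1.5-fold in all 4 ratios and 6 passed 2-fold, beside 195 and 59 here. At 1.5-fold, 27 genes (0.268%) were higher and 10 (0.0991%) lower on the treated arrays, and at 2-fold 4 (0.0396%) were higher and 2 (0.0198%) lower. Both divisions use the same 4 arrays and the same 10092 genes, and no test of the difference can be made with 1 array per group.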

How the data were processed

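Total RNA of rat skeletal muscle was labelled with biotin and hybridised to 4 single-colour arrays, 1 per group. Each value the authors deposited is an intensity of a probe set, not on a log scale. MAS5 stands in the submitters' processing notes, and further steps are not stated in the labels. The 2% trimmed mean was 150.1 on every array before any step of the re-analysis, so a difference in total mRNA cannot be seen. Of 31099 probe sets, 20832 had 1 symbol in the platform annotation of 2016, 436 several and 9831 none. RefSeq (GRCr8) held the gene identifier of 20764 of them, with 0 differing symbols.

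Intensities were scaled to a common 2% trimmed mean, floored at the 50th percentile (30.1) and compared as cross ratios with Python 3.11.15, pandas 2.3.3 and numpy 2.4.6, on the brightest probe set of each gene. A ratio against 2 arrays under the floor is a lower bound ("at least"). Quantile and loess normalization used limma 3.58.1. Other floors and thresholds, a pseudocount, other probe set rules and leaving out each array were also tried. With 1 array per group nothing was tested, and the number of arrays limits the precision. The calculation was tested on simulated arrays. The members and the 40 gene lists were chosen with earlier results of these data known. The rule for named genes took all genes past 2-fold, up to 6 per list past 1.5-fold, the 3 nearest each threshold and 12 fixed genes. All other genes in the text were named after their values were seen. Symbols starting with LOC or RGD were only counted.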

Additional observations from a re-analysis of the deposited data

Results flagged for a closer look

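ES was at least 2-fold above ischemia for 7 of the 138 genes higher on ischemia and ES, beside 2.28% of all genes. Exercise lay below ischemia by over 1.5-fold for these, as it does for all 138 by the way they were chosen, so the opposite directions of ES and exercise are no finding and only the height of ES above ischemia is described. Myh8, perinatal myosin, was 27.7-fold higher on ES and 1.92-fold lower on exercise. Atp1b4, a muscle protein related to the sodium pump beta subunits, was 3.19-fold higher on ES and 2.14-fold lower on exercise. Mmp12, the macrophage elastase, was 2.71-fold higher on ES, and on exercise it lay under the floor. Dclk1, a kinase that binds microtubules, was 2.24-fold higher on ES, and Plagl1, an imprinted zinc finger gene, 2.19-fold, though Plagl1 did not stay among the higher genes under both quantile and loess normalization. Igf2, the imprinted growth factor, was 2.09-fold and Spp1, osteopontin, 2.02-fold higher on ES. Each difference rests on single arrays, both comparisons share the ischemia array, and the difference between ES and exercise was not tested.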

How the results depend on the processing

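No paired analysis was possible because each group has 1 array. At 2-fold and 1.5-fold, the counts of 28 and 138 higher and 31 and 57 lower genes moved by over 1.5 times with the floor and the threshold. A floor at the 30th percentile gave 61 and 233 higher and 49 and 106 lower genes, one at the 70th percentile 14 and 64 higher and 19 and 35 lower, and a 3-fold threshold 3 higher and 12 lower. Leaving out 1 array keeps 2 of the 4 ratios, so more genes pass: 43 to 204 (2-fold) and 231 to 788 (1.5-fold) were higher, with the highest counts without ischemia, and 42 to 65 and 106 to 254 lower. Each array left out moved each count by over 1.5 times, except that 42 genes were lower past 2-fold without exercise. Quantile and loess normalization, log2(signal + 16), genes above the floor on all arrays, the mean of probe sets, leaving out probe sets open to cross-hybridization and, chosen after seeing the data, leaving out genes with an overlapping or opposite other probe set kept all 4 counts within 1.5 times. The genes were not always the same: under log2(signal + 16), 15 of the 28 and 93 of the 138 higher and 25 of the 31 and 51 of the 57 lower genes still passed. Under both quantile and loess normalization, 25 of the 28 higher and 30 of the 31 lower genes stayed past 2-fold, with Ccdc80, Cd300c2, Igsf10 and Tnn lost, and 115 of the 138 higher and 56 of the 57 lower genes stayed past 1.5-fold. Of 764 values of 100 named genes under the settings other than leaving out an array, 704 kept their side of 1.5-fold, 54 fell under it and 6 passed it, and none of those past 1.5-fold changed direction.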
